A study of Rattus norvegicus with 9 samples.

Results

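Cisplatin was compared with phosphate-buffered saline (PBS) in HEI-OC1 cells after 24 h, with 3 RNA sequencing libraries from each treatment, 6 of the 9 libraries of the study. HEI-OC1 is an immortalized line derived from the hearing organ of the inner ear, and the labels call it hair cell-like. The members of the comparison were chosen by the sample titles, which give the treatment and the replicate number. The remaining 3 libraries came from cells given neomycin, an aminoglycoside antibiotic, for 24 h. The labels name no genotype, strain or further agent for any group, and the sources used here give no doses. All libraries came from this 1 line, so no separate animals stand behind the replicates. The labels number the line differently in each sample, from HEI-OC1 upwards, whereas the design text names 1 line, and they do not say that replicates came from separate cultures. The p-values therefore cover the spread among these libraries alone, and it may be technical.

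Cisplatin is a platinum drug that binds purine bases of DNA and joins neighbouring bases on the same strand or bases on opposite strands. Such adducts stop replication forks and elongating RNA polymerase, and they are removed mainly by nucleotide excision repair, while links between strands also need the Fanconi anemia pathway and homologous recombination. The drug enters cells in part through copper transporters and is bound by glutathione and metallothioneins. Its use against tumours is limited by loss of hearing, since it kills outer hair cells and damages the lateral wall and the neurons of the cochlea.

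The values are FPKM, fragments scaled to gene length and library size, computed by the authors. Scaling totals of the 6 libraries, worked out from the values, lay between 32510698 and 40221089 reads. The labelled cell type was checked against its markers. Of 11 hair cell markers found in the table, Myo6, a motor of the hair bundle, was the one above 2 FPKM in every library, with 13.4, 14.8 and 15.2 FPKM with PBS and 7.32, 7.52 and 6.65 FPKM with cisplatin. Myo7a, another of those motors, had 0.933, 0.862 and 0.853 FPKM with PBS and 1.32, 1.46 and 1.22 FPKM with cisplatin. The other 9 markers were listed at 0 or below 0.1 FPKM in every PBS and cisplatin library, among them Espn, Otof, Pou4f3 and Slc26a5. The 9 fibroblast and mesenchyme markers had a summed level of 7515 to 7886 FPKM with PBS and of 2777 to 2959 FPKM with cisplatin. Of the 8 tested, 7 were lower with cisplatin and 1, Thy1, was higher on the values as deposited (7 and 0 with TMM factors). Immune markers summed to 0.16 to 0.29 FPKM with PBS and 1.61 to 1.94 FPKM with cisplatin, nearly all from Cd68. Endothelial markers summed to 1.90 to 2.37 FPKM and 0.36 to 0.63 FPKM, nearly all from Tek. Supporting cell markers summed to 46.63 to 51.67 FPKM with PBS and 75.55 to 77.33 FPKM with cisplatin, and of 4 tested 3 were higher and 1 lower. Epithelial, glial and neuronal markers stayed at or below 2.10 FPKM in sum in all 6 libraries. In bulk RNA fewer cells of a type and less RNA per cell cannot be told apart.

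Most genes that could be tested differed between cisplatin and PBS. The test was limma's moderated test on log2(FPKM + 1) over the 10532 genes whose mean reached 1 FPKM, with an adjusted p below 0.05 as the threshold. A total of 8216 genes (78.0%) passed, 5001 higher (47.5%) and 3215 lower (30.5%), and these shares are the background for every list below. A rise of 2-fold or more was found for 624 genes (5.92%) and a fall of 2-fold or more for 354 (3.36%). The median gene lay 0.12 higher with cisplatin on the log2 scale. With TMM factors, which rescale libraries to a common trimmed mean, the median lay at -0.01 and the calls divided into 3918 higher and 4165 lower, with 435 rises and 497 falls of 2-fold or more. With quantile normalization they divided into 4038 and 4034, with 440 rises and 464 falls of 2-fold or more. The scaling moved the median gene by -0.139 with TMM factors and -0.122 with quantile normalization, and single genes with differences of up to 0.149 and 0.208 changed direction. The PBS and cisplatin libraries did not overlap in 80.1% of tested genes, the background for every statement on overlap below, and the largest rises and falls were named only where they did not overlap. PBS replicate 1 stood apart, its reads giving a chi-square of 10.85 and 12.45 per degree of freedom against the other PBS libraries, which gave 3.98 against each other. Without it 4951 genes were higher and 3238 lower.

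The largest rise among the genes named was that of Maff, and the others near it differed in function. Log2 differences below are cisplatin minus PBS in log2(FPKM + 1), a scale on which changes of low genes come out too small, and are given ± SE with n = 3 per group. Maff, a small MAF transcription factor, had 8.41, 7.75 and 8.38 FPKM with PBS and 122, 118 and 106 FPKM with cisplatin (log2 difference 3.66 ± 0.06, limma adjusted p = 6.06e-14). Pvr, an adhesion receptor of the nectin family, had 27.8, 25.3 and 24.6 FPKM with PBS and 187, 187 and 179 FPKM with cisplatin (2.79 ± 0.05). Ccn2, a secreted matrix-associated growth regulator, had 51.7, 38.6 and 42.3 FPKM with PBS and 318, 301 and 293 FPKM with cisplatin (2.76 ± 0.08). In each of these genes the lowest cisplatin library lay above the highest PBS library, as the rule for naming them required.

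The EGF receptor ligand Areg was at 1.74, 1.19 and 0.933 FPKM with PBS and 13.01, 12.1 and 13.05 FPKM with cisplatin (2.6 ± 0.12). The prostaglandin synthase Ptgs2 had 9.73, 10.1 and 10.9 FPKM with PBS and 63.7, 63.5 and 60.04 FPKM with cisplatin (2.5 ± 0.05), and the cytokine Il6 had 3.53, 2.89 and 2.802 FPKM with PBS and 19.97, 23.8 and 20.6 FPKM with cisplatin (2.46 ± 0.11). Neurl3, a ubiquitin ligase of the neuralized family, was nearly unread with PBS at 0.178, 0.0843 and 0.09095 FPKM and had 5.901, 6.41 and 4.83 FPKM with cisplatin. Csrnp1, a nuclear protein first described as induced by axin, had 0.971, 0.752 and 0.749 FPKM with PBS and 10.997, 9.85 and 9.94 FPKM with cisplatin (2.63 ± 0.07). A pair of splicing regulators stood among the 25 largest rises. Ccnl1, a cyclin that acts with splicing kinases, had 8.09, 10.3 and 10.2 FPKM with PBS and 58.5, 57.3 and 60.4 FPKM with cisplatin (2.51 ± 0.08). Clk4, a kinase of the serine and arginine rich splicing factors, had 4.97, 5.98 and 5.67 FPKM with PBS and 33.1, 33.9 and 35.7 FPKM with cisplatin (2.43 ± 0.06).

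Several of these genes have promoters known for response elements of CREB and ATF factors, AP-1 and NF-kB. The sequences before the start sites of 5 large rises are shown because they hold matches that the text turns to next. They are the 250 bases before the annotated start in rat RefSeq (GRCr8), 5′ to 3′ on the strand of the gene, rat being the species of the labels although the line is known to be of mouse origin, and capitals mark matches to the cyclic AMP response element, AP-1 and kappaB motifs.
Maff (chr7:112792537-112792786, plus strand): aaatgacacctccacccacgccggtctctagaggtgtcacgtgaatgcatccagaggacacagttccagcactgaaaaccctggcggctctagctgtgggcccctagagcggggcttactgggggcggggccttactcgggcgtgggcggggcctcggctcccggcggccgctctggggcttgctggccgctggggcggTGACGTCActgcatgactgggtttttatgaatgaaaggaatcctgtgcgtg
Areg (chr14:17265642-17265891, minus strand): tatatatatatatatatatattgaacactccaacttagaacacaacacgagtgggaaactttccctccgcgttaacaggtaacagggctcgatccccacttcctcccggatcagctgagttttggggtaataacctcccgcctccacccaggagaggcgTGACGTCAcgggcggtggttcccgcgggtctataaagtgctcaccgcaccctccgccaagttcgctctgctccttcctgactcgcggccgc
Il6 (chr4:5894576-5894825, minus strand): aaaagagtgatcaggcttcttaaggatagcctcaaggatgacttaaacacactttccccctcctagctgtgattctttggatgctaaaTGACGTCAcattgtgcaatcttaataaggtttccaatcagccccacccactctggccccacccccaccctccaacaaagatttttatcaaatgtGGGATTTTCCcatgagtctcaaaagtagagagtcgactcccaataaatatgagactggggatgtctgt
Cxcl2 (chr14:17467256-17467505, minus strand): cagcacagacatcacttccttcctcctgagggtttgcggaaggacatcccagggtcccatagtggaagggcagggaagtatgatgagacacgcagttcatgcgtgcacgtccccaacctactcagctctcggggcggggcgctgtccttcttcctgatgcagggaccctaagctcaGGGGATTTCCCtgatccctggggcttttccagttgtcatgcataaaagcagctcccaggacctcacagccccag
Tnfaip3 (chr1:15543980-15544229, minus strand): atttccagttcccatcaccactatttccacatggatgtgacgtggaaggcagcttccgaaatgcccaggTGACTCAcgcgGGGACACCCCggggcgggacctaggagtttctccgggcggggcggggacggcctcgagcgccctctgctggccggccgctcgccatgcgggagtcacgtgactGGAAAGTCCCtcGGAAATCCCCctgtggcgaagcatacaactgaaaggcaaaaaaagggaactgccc
Maff, Areg and Il6 each hold the palindrome TGACGTCA. Il6, Cxcl2 and Tnfaip3 hold kappaB matches, a pair of overlapping ones in Cxcl2, and Tnfaip3 also holds an AP-1 match (TGANTCA).

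Of the 25 largest rises, 21 had a promoter of 300 bases in the table (250 before the start and 50 after it), and of the 25 largest falls 15 had one. Both strands were searched and motifs were allowed to overlap. TGACGTCA was found in 6 of the 21 (28.6%), a kappaB match in 5 (23.8%), TGANTCA in 4 (19.0%) and TATAAA in 6 (28.6%). Among the 15 falls TGACGTCA and kappaB were found in 0, TGANTCA in 1 and TATAAA in 1. Of the 8778 tested genes with a promoter 3.5% held TGACGTCA, 4.9% a kappaB match, 4.6% TGANTCA and 6.3% TATAAA. Over all 27457 promoters of the table the shares were 1.9%, 4.2%, 7.3% and 14.3%. The CArG box (CC, 6 bases of A or T, GG) was searched as well. It was found in 0 of the 21 rises and 0 of the 15 falls, in 1.3% of the tested genes and in 1.6% of all promoters. These counts describe letters in a window of the rat reference. Sites used in these cells were not measured.

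Among the 25 largest falls were genes of different functions. Gpc6, a glypican that carries heparan sulfate chains at the membrane, had 16.2, 18.1 and 19.5 FPKM with PBS and 0.375, 0.235 and 0.339 FPKM with cisplatin (-3.84 ± 0.08, limma adjusted p = 9.37e-14). Igfbp5, a secreted binding protein of insulin-like growth factors, had 8.15, 6.86 and 8.24 FPKM with PBS and 0.149, 0.191 and 0.168 FPKM with cisplatin (-2.9 ± 0.07). Cdh13, a cadherin held by a lipid anchor, had 21.2, 20.1 and 20.2 FPKM with PBS and 2.15, 2.15 and 1.83 FPKM with cisplatin (-2.82 ± 0.06). In these 3 genes every cisplatin value lay below every PBS value, as the rule for naming them required.

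Exoc6b, a subunit of the exocyst that tethers secretory vesicles, had 8.102, 8.88 and 8.87 FPKM with PBS and 0.662, 1.06 and 0.927 FPKM with cisplatin. Pard3, a scaffold of cell polarity, had 12.6, 12.3 and 11.9 FPKM with PBS and 1.79, 2.49 and 1.92 FPKM with cisplatin. Clybl, a mitochondrial lyase, had 9.45, 8.91 and 7.81 FPKM with PBS and 0.881, 1.24 and 0.823 FPKM with cisplatin. Their log2 differences were -2.36 ± 0.08, -2.12 ± 0.08 and -2.3 ± 0.09. Zic2, a zinc finger transcription factor, fell from 82.1, 78.3 and 83.4 FPKM to 18.8, 20.4 and 18.8 FPKM, and Ccdc80, a secreted matrix protein, from 707, 701 and 724 to 167, 176 and 167 FPKM.

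**Figure D1:**
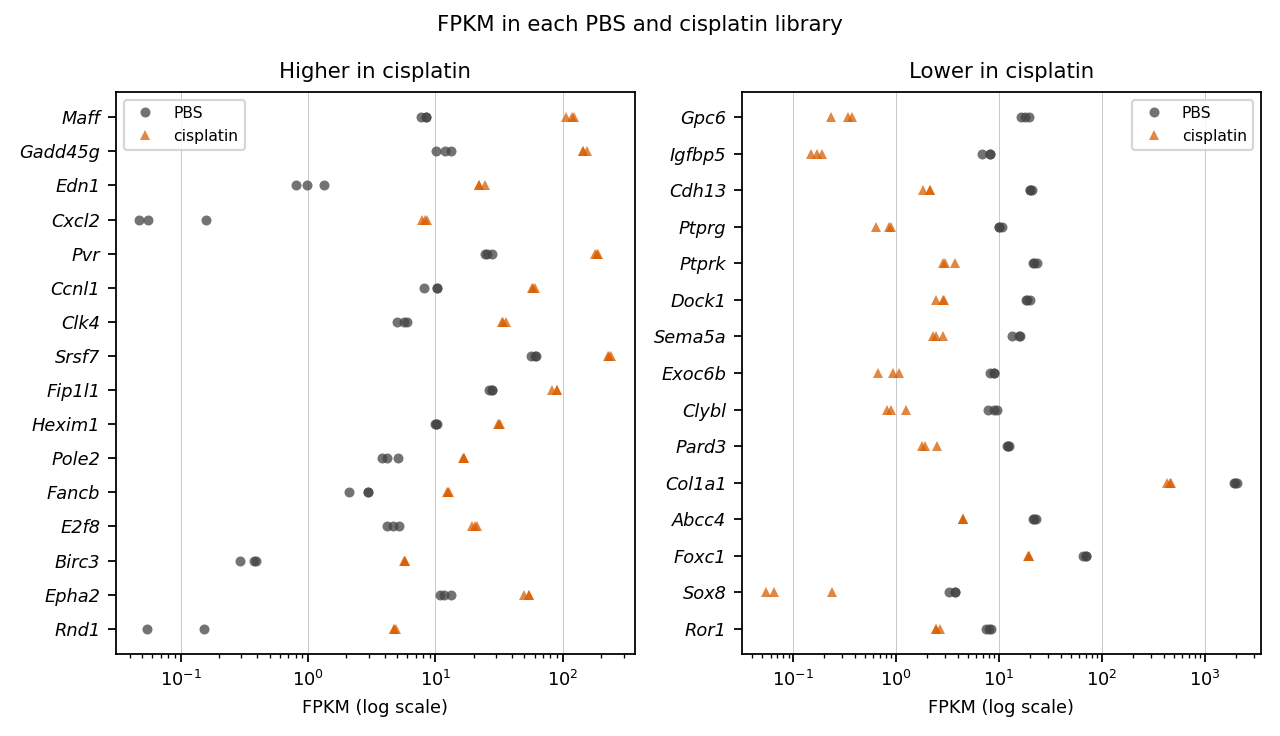
FPKM of 31 genes in each PBS and cisplatin library on a log10 axis, 16 that were higher with cisplatin and 15 that were lower, points being single libraries. Values of exactly 0 cannot be drawn on this axis, which leaves out Rnd1 in PBS replicate 3; Maff runs from 7.75 to 8.41 FPKM with PBS to 106 to 122 FPKM with cisplatin, and Gpc6 from 16.2 to 19.5 FPKM down to 0.235 to 0.375 FPKM.

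Genes of RNA processing were higher with cisplatin at several steps between transcription and export. Of 125 tested genes of the KEGG spliceosome pathway 102 were higher and 12 lower, with a median log2 difference of 0.53 against 0.12 over all genes, and 89 and 15 with TMM factors. Srsf7, a serine and arginine rich splicing factor, had 55.95, 61.9 and 60.1 FPKM with PBS and 228, 231 and 239 FPKM with cisplatin (1.96 ± 0.05, limma adjusted p = 3.95e-13). Prpf38b, a factor of spliceosome activation, had 19.7, 21.9 and 19.95 FPKM with PBS and 68.7, 64.9 and 73.4 FPKM with cisplatin (1.7 ± 0.06), and Rbm8a, a core protein of the exon junction complex, had 42.7, 47.9 and 44.8 FPKM with PBS and 139, 133 and 143 FPKM with cisplatin (1.6 ± 0.05). In all 3 genes the lowest cisplatin library lay above the highest PBS library. The largest falls in the pathway were Ctnnbl1 (-0.66 ± 0.06), the intron-binding helicase Aqr (-0.63 ± 0.05) and Prpf8 (-0.55 ± 0.05), the core protein of the catalytic centre, which had 66.9, 61.97 and 66.7 FPKM with PBS and 43.97, 45.2 and 43.1 FPKM with cisplatin.

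Other regulators of splicing were looked at after their values had been seen. Srsf1 had 49.99, 55.2 and 53.5 FPKM with PBS and 134, 135 and 134 FPKM with cisplatin (1.33 ± 0.04), and Srsf2 and Srsf3 differed by 1.33 ± 0.04 and 0.86 ± 0.04. The kinase Clk1 had 24.9, 29.3 and 28.9 FPKM with PBS and 62.4, 61.4 and 61.4 FPKM with cisplatin (1.13 ± 0.07) and the cyclin Ccnl2 had 8.26, 9.29 and 9.304 FPKM with PBS and 23.6, 21.7 and 23.1 FPKM with cisplatin (1.26 ± 0.06), the relatives of Clk4 and Ccnl1 described above.

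Of 19 cleavage and polyadenylation factors, which cut the transcript and add its tail, 15 were higher and 0 lower (13 and 2 with TMM factors). Fip1l1, which joins the cutting complex to the poly(A) polymerase, had 26.5, 28.02 and 27.6 FPKM with PBS and 89.3, 82.9 and 90.3 FPKM with cisplatin (1.64 ± 0.05). Cpsf4 and Cstf3, of the complexes that read the signals around the cut, differed by 1.26 ± 0.05 and 1.24 ± 0.05. Of 46 enzymes that modify tRNA and rRNA 33 were higher and 6 lower (26 and 7 with TMM factors), led by Trit1 (1.49 ± 0.06). Of 48 DEAD and DEAH box helicases, which unwind RNA, 34 were higher and 6 lower. Of 96 genes of nucleocytoplasmic transport 71 were higher and 12 lower (59 and 21 with TMM factors). Nup42, a nucleoporin of mRNA export, had 10.2, 9.49 and 8.31 FPKM with PBS and 36.4, 34.03 and 32.7 FPKM with cisplatin (1.78 ± 0.07), and the export adaptor Alyref differed by 1.16 ± 0.04, while the tRNA exporter Xpot fell (-0.69 ± 0.04).

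The mRNA surveillance pathway counted 55 higher and 12 lower genes of 79. Of 36 genes of nonsense-mediated decay and the RNA exosome 21 were higher and 5 lower (19 and 9 with TMM factors), and the falls took in central decay factors. Smg6, the endonuclease of nonsense-mediated decay, had 8.28, 7.71 and 7.96 FPKM with PBS and 2.67, 3.05 and 2.88 FPKM with cisplatin (-1.22 ± 0.07). The decay helicase Upf1 (-0.64 ± 0.05) and the kinase Smg1 (-0.52 ± 0.06) also fell, and Upf3a rose (0.85 ± 0.05).

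**Figure D2:**
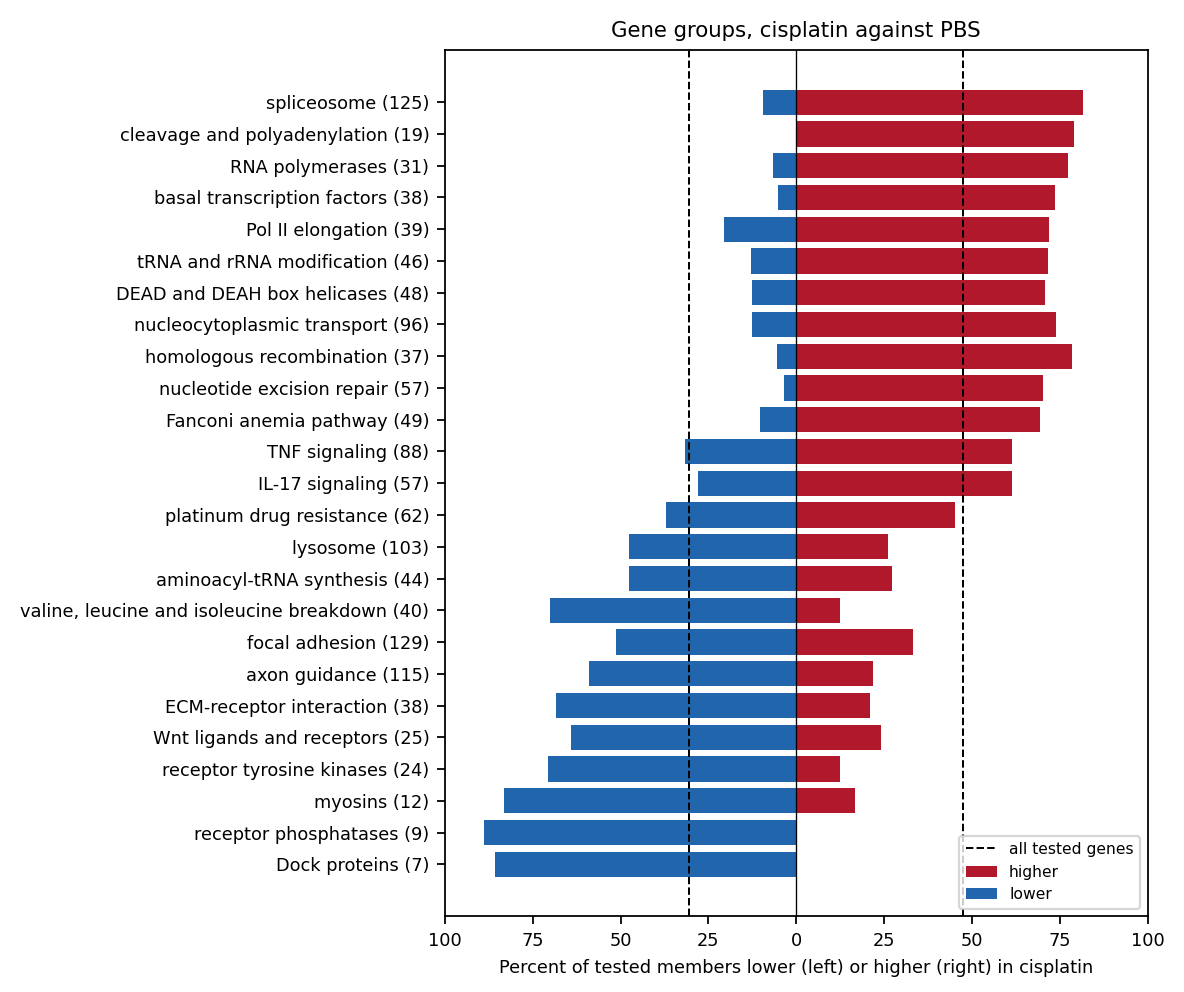
Share of tested genes that were higher (right) or lower (left) with cisplatin, in percent, for 25 lists, with the number tested in brackets and dashed lines at the background of 47.5% higher and 30.5% lower. The RNA processing and repair lists have their longer bars on the higher side, and the receptor phosphatases and Dock proteins have no higher member.

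In the transcription machinery itself, 24 of 31 RNA polymerase genes were higher and 2 lower, and 28 of 38 basal transcription factors were higher and 2 lower (23 and 6 with TMM factors). Polr1e, a subunit of RNA polymerase I, had 6.504, 5.82 and 5.88 FPKM with PBS and 15.04, 13.5 and 15.6 FPKM with cisplatin (1.15 ± 0.07). Gtf2b, which helps to place polymerase II at the start, differed by 1.02 ± 0.06, and Gtf2i, a multifunctional factor named with this group, fell (-1.1 ± 0.04). Of 39 pausing and elongation factors of polymerase II 28 were higher and 8 lower (21 and 9 with TMM factors). Hexim1, the inhibitor of the elongation kinase P-TEFb, had 9.99, 10.3 and 10.1 FPKM with PBS and 31.98, 31.8 and 31.1 FPKM with cisplatin (1.55 ± 0.06, limma adjusted p = 1.25e-11). Brd2, a bromodomain protein of active chromatin, had 57.2, 55.9 and 59.04 FPKM with PBS and 148, 144 and 147 FPKM with cisplatin (1.33 ± 0.04). The 3 largest falls were Supt5h (-0.78 ± 0.05), Aff1 (-0.63 ± 0.06) and Nelfb (-0.59 ± 0.05), which belong to the pausing and elongation complexes DSIF, SEC and NELF.

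The repair routes for platinum adducts were mostly higher. Of 57 genes of nucleotide excision repair 40 were higher and 2 lower, with a median log2 difference of 0.39 (36 and 9 with TMM factors). Pole2, a subunit of DNA polymerase epsilon, had 3.799, 4.19 and 5.04 FPKM with PBS and 16.9, 16.6 and 16.9 FPKM with cisplatin (1.74 ± 0.08, limma adjusted p = 9.3e-11). The single-strand binding protein Rpa2 (1.38 ± 0.05) and Pold3 (1.37 ± 0.05), a subunit of polymerase delta, came next. These 3 genes serve gap filling and replication and are shared with other repair pathways. Ddb1, which belongs to the damage sensor of chromatin, had 162, 149 and 146 FPKM with PBS and 91.4, 90.997 and 85.5 FPKM with cisplatin and was lower (-0.76 ± 0.05).

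In the Fanconi anemia pathway 34 of 49 genes were higher and 5 lower, and in homologous recombination 29 of 37 were higher and 2 lower. Fancb, a subunit of the core ubiquitin ligase, had 2.09, 2.96 and 2.97 FPKM with PBS and 12.6, 12.2 and 12.8 FPKM with cisplatin (1.89 ± 0.09), and Ube2t, the enzyme that hands ubiquitin to that ligase, had 20.7, 21.2 and 19.04 FPKM with PBS and 62.4, 66.3 and 63.7 FPKM with cisplatin (1.61 ± 0.05). Eme1, a partner of the nuclease that cuts branched DNA, differed by 1.32 ± 0.07. Babam2, a subunit of the BRCA1-A complex, went the other way with 51.3, 48.8 and 48.3 FPKM with PBS and 13.7, 18.1 and 14.7 FPKM with cisplatin (-1.62 ± 0.08). Mismatch repair counted 15 higher and 2 lower genes of 21, the nuclease Exo1 rising (1.58 ± 0.06) and Msh3 falling (-0.68 ± 0.06). Base excision repair was more divided, with 26 higher and 9 lower of 43. Polb, its gap-filling polymerase, had 21.1, 20.9 and 21.8 FPKM with PBS and 55.5, 51.5 and 52.8 FPKM with cisplatin (1.29 ± 0.05), and the glycosylases Ung (-0.98 ± 0.06) and Nthl1 (-0.94 ± 0.06) fell. Of 11 genes of non-homologous end-joining 4 were higher and 4 lower. The kinase subunit Prkdc had 5.98, 6.997 and 7.92 FPKM with PBS and 2.56, 3.27 and 2.66 FPKM with cisplatin (-1.05 ± 0.09), Nhej1 fell (-0.81 ± 0.1), and the ligase Lig4 rose (0.65 ± 0.11).

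The KEGG pathway of platinum drug resistance, all of whose 62 tested members were examined, showed no common direction. Of these 28 were higher and 23 lower (26 and 27 with TMM factors), with a median log2 difference of 0.05. Most of its members were placed in groups by role, and the remaining ones were left ungrouped. Among 18 regulators of cell death 11 were higher and 1 lower (11 and 4 with TMM factors). Birc3, an inhibitor of apoptosis that NF-kB is known to induce, had 0.378, 0.387 and 0.294 FPKM with PBS and 5.76, 5.703 and 5.79 FPKM with cisplatin (2.32 ± 0.07), and Birc2 had 8.73, 9.78 and 8.84 FPKM with PBS and 22.9, 22.9 and 21.99 FPKM with cisplatin (1.22 ± 0.06). The member that fell on the values as deposited, Xiap, had 6.36, 7.83 and 8.05 FPKM with PBS and 5.22, 5.18 and 5.55 FPKM with cisplatin (-0.41 ± 0.08). Cycs, cytochrome c, differed by 1.06 ± 0.06. Bcl2 had 1.72, 1.92 and 3.22 FPKM with PBS and 2.15, 2.43 and 2.11 FPKM with cisplatin and Bcl2l1 had 3.26, 2.89 and 3.17 FPKM with PBS and 3.25, 3.36 and 3.14 FPKM with cisplatin, overlapping between the groups, with differences of 0.00 ± 0.13 and 0.05 ± 0.06.

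Among 13 glutathione S-transferases of the pathway, which couple glutathione to reactive compounds, 3 were higher, 6 lower and 4 did not pass (2 higher and 7 lower with TMM factors). Gstm7 had 10.4, 10.8 and 11.2 FPKM with PBS and 5.17, 4.64 and 4.59 FPKM with cisplatin (-1.02 ± 0.07) and Gsto1 had 39.8, 37.5 and 39.8 FPKM with PBS and 68.1, 66.02 and 70.8 FPKM with cisplatin (0.79 ± 0.05). Gstp1 had 281, 276 and 289.8 FPKM with PBS and 291, 289.5 and 276 FPKM with cisplatin, with a difference of 0.02 ± 0.04 that did not pass and that was -0.135 and passed with TMM factors. Genes of the Gstm group are close copies and the split of reads among them is uncertain. Of 10 genes of PI3 kinase and Akt 4 were higher and 6 lower. The kinase genes Akt1 and Akt2 fell, with differences of -0.38 ± 0.05 and -0.41 ± 0.06, as did the regulatory subunits Pik3r1 (-0.83 ± 0.07) and Pik3r2 (-0.7 ± 0.05), while Pik3r3 rose (0.93 ± 0.06). Of 9 genes of repair and lesion bypass 5 were higher and 3 lower. Brca1 had 7.62, 7.94 and 8.47 FPKM with PBS and 19.8, 19.7 and 19.8 FPKM with cisplatin (1.2 ± 0.05), and Polh, the polymerase that copies past platinum adducts, had 5.62, 5.37 and 5.06 FPKM with PBS and 12.9, 11.3 and 10.9 FPKM with cisplatin (0.997 ± 0.07).

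**Figure D3:**
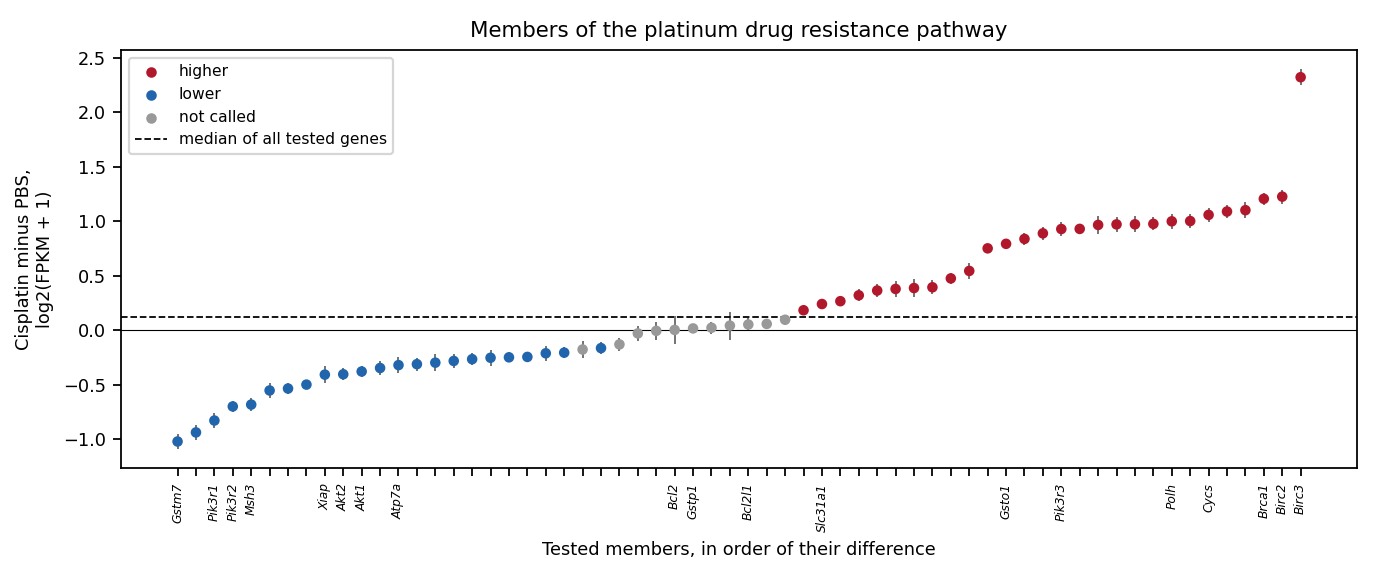
Log2 difference of cisplatin minus PBS on the log2(FPKM + 1) scale for the 62 tested members of the platinum drug resistance pathway, bars being ± 1 SE, colours marking the call, the dashed line the median of all tested genes and names the members described in the text. Members run from Gstm7 at -1.02 to Birc3 at 2.32, with 28 higher, 23 lower and 11 that did not pass.

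Genes of platinum uptake, binding and efflux changed in both directions. The copper importer Slc31a1, a route of cisplatin uptake, had 42.1, 41.4 and 40.6 FPKM with PBS and 48.99, 49.4 and 48.6 FPKM with cisplatin, a difference of 0.24 ± 0.04 that no longer passed with TMM factors (0.09, limma adjusted p = 0.0749). Slc31a2 had 6.54, 5.37 and 6.13 FPKM with PBS and 9.52, 9.66 and 10.6 FPKM with cisplatin (0.64 ± 0.07), and the copper exporter Atp7a had 3.99, 4.41 and 4.79 FPKM with PBS and 2.99, 3.56 and 3.403 FPKM with cisplatin (-0.32 ± 0.08). The organic cation transporters Slc22a2 and Slc47a1 were listed at 0 or below 0.1 FPKM in all 6 libraries. The metal-binding protein Mt1 had 227, 211 and 237 FPKM with PBS and 282, 275 and 275 FPKM with cisplatin (0.3 ± 0.06). The efflux pump Abcc4 had 22.1, 21.4 and 23.02 FPKM with PBS and 4.43, 4.47 and 4.43 FPKM with cisplatin (-2.09 ± 0.05, limma adjusted p = 7.42e-13). Abcb1b, the gene of a drug efflux pump of rodents, moved the other way, with 7.42, 7.35 and 7.15 FPKM with PBS and 29.6, 27.6 and 29.4 FPKM with cisplatin (1.85 ± 0.06). Of 24 tested ABC transporters 4 were higher and 12 lower.

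Inflammatory signalling pathways held many of the large rises next to members that fell. The TNF pathway had 54 higher and 28 lower genes of 88, with 23 rises and 2 falls of 2-fold or more. The IL-17 pathway had 35 higher and 16 lower of 57, and the NF-kB pathway 39 higher and 16 lower of 65 (28 and 19 with TMM factors). Among the falls, the collagenase Mmp13 had 99.4, 103 and 109 FPKM with PBS and 15.8, 19.6 and 14.8 FPKM with cisplatin (-2.57 ± 0.09) and the membrane protease Mmp14 had 162, 153 and 156 FPKM with PBS and 64.7, 61.9 and 60.2 FPKM with cisplatin (-1.32 ± 0.04). Cxcl1, a neutrophil chemokine, fell from 366, 383 and 410.3 to 226, 233 and 237 FPKM (-0.73 ± 0.06), while its relative Cxcl2 rose from 0.0557, 0.158 and 0.0474 to 8.23, 8.61 and 7.84 FPKM. Tradd, the adaptor of the TNF receptor, had 20.3, 21.6 and 21.6 FPKM with PBS and 11.8, 12.04 and 10.5 FPKM with cisplatin (-0.84 ± 0.06). In the JAK-STAT pathway 35 genes were higher and 32 lower of 82 (34 and 35 with TMM factors), led by the ligands Il6, Lif (1.79 ± 0.08) and Il11 (1.35 ± 0.08). Lif had 3.22, 2.65 and 3.08 FPKM with PBS and 13.3, 13.03 and 11.998 FPKM with cisplatin, and the growth factor receptors Egfr and Pdgfrb, which KEGG also lists there, fell. MAPK signalling divided in the same way, with 92 higher and 76 lower of 192 (75 and 88 with TMM factors).

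Some transcription factors of these pathways were looked at after their values had been seen, and their families did not share 1 direction. Of 8 tested genes of the RHD family, which holds the NF-kB subunits, 5 were higher and 2 lower (4 and 2 with TMM factors). In the STAT family 1 was higher and 4 lower of 5, with the same counts with TMM factors. The genes named next are ones that rose. Relb had 8.22, 7.67 and 7.74 FPKM with PBS and 25.8, 26.3 and 26.3 FPKM with cisplatin (1.61 ± 0.07), Rel had 1.83, 2.06 and 2.01 FPKM with PBS and 6.28, 6.6998 and 6.38 FPKM with cisplatin (1.33 ± 0.09) and Rela had 34.4, 34.4 and 34.8 FPKM with PBS and 70.2, 67.2 and 67.9 FPKM with cisplatin (0.97 ± 0.04). The interferon regulatory factor Irf1 had 28.9, 26.8 and 26.3 FPKM with PBS and 96.9, 98.4 and 93.4 FPKM with cisplatin (1.78 ± 0.04).

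Receptor families differed in their counts. Of 23 tested cytokine receptors 8 were higher and 6 lower (7 and 8 with TMM factors). Of 24 tested receptor tyrosine kinases 17 were lower and 3 higher, with a median log2 difference of -0.54 (19 and 2 with TMM factors). Ror1, a receptor of Wnt5a, had 7.48, 8.37 and 8.05 FPKM with PBS and 2.45, 2.42 and 2.66 FPKM with cisplatin (-1.35 ± 0.07, limma adjusted p = 4.1e-10). The EGF receptor gene Egfr had 4.23, 4.23 and 4.47 FPKM with PBS and 1.34, 1.33 and 1.36 FPKM with cisplatin (-1.18 ± 0.06), opposite to its ligand Areg. Pdgfrb, a receptor of platelet-derived growth factor, fell from 54.9, 52.01 and 49.5 to 26.3, 26.7 and 24.9 FPKM. The ephrin receptor Epha2 was the largest exception, with 13.4, 11.7 and 10.9 FPKM with PBS and 54.02, 54.6 and 49.6 FPKM with cisplatin (2.05 ± 0.07).

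Of 9 receptor-type protein tyrosine phosphatases, which remove phosphate from tyrosines at the membrane, 8 were lower and 0 higher, with a median log2 difference of -1.34. Ptprg had 9.95, 10.03 and 10.6 FPKM with PBS and 0.642, 0.886 and 0.843 FPKM with cisplatin (-2.65 ± 0.07), Ptprk had 21.5, 22.1 and 23.2 FPKM with PBS and 2.87, 3.69 and 2.97 FPKM with cisplatin (-2.48 ± 0.07) and Ptprd had 13.9, 13.95 and 15.8 FPKM with PBS and 3.93, 4.71 and 4.01 FPKM with cisplatin (-1.57 ± 0.08). The median gene model of the 9 was 7750 bases long against 3152 over all tested genes, and length itself went with the direction of change, as described further on.

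Growth factor ligands were divided, 5 higher and 11 lower of 20. Csf1, the growth factor of macrophages, had 67.5, 61.7 and 62.7 FPKM with PBS and 187, 191 and 175 FPKM with cisplatin (1.51 ± 0.05). Fgf7 had 47.1, 54.4 and 55.01 FPKM with PBS and 19.6, 20.7 and 20.5 FPKM with cisplatin (-1.32 ± 0.06) and Angpt1, the ligand of Tek, had 5.76, 6.77 and 6.89 FPKM with PBS and 1.36, 1.72 and 1.43 FPKM with cisplatin (-1.58 ± 0.08). Tek fell as well, from 2.36, 1.89 and 2.203 to 0.383, 0.548 and 0.294 FPKM. Among 25 Wnt ligands, receptors and antagonists 16 were lower and 6 higher, with the secreted antagonist Sfrp4 at 40.2, 40.9 and 44.5 FPKM with PBS and 11.4, 12.1 and 10.4 FPKM with cisplatin (-1.8 ± 0.06) and the R-spondin receptor Lgr4 at 36.6, 38.7 and 37.8 and 10.8, 11.5 and 11.3 FPKM (-1.66 ± 0.05). The receptor Fzd8 rose (1.32 ± 0.09). In the Hedgehog pathway 19 genes were lower and 6 higher of 40, led by the coreceptor Gas1 with 29.8, 34.2 and 33.3 FPKM with PBS and 4.85, 5.37 and 5.11 FPKM with cisplatin (-2.45 ± 0.07) and followed by the receptor Ptch1 (-1.15 ± 0.08).

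Lists of adhesion to the matrix and of axon guidance had more lower than higher genes. Of 38 genes of ECM-receptor interaction 26 were lower and 8 higher, with a median log2 difference of -0.70, and 13 were at least 2-fold lower. Collagen genes are also fibroblast markers, whose summed level fell as given above, and the part of that fall in the list was not tested. The collagen chain Col1a2 had 2554, 2379.6 and 2306 FPKM with PBS and 749, 769 and 671 FPKM with cisplatin (-1.73 ± 0.05). Thrombospondin, Thbs1, was the largest rise in that list, with 64.1, 58.1 and 56.6 FPKM with PBS and 191, 188 and 180.2 FPKM with cisplatin (1.63 ± 0.05). Of 129 focal adhesion genes 66 were lower and 43 higher, with talin 2, Tln2, at 18.5, 17.1 and 17.6 FPKM with PBS and 3.25, 3.86 and 3.15 FPKM with cisplatin (-2.09 ± 0.07). Of 7 cadherins and protocadherins 6 were lower, among them N-cadherin, Cdh2, with 39.8, 41.6 and 42.5 FPKM with PBS and 15.8, 16.5 and 15.9 FPKM with cisplatin (-1.31 ± 0.05), and 1, Cdh24, was higher.

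Of 115 axon guidance genes 68 were lower and 25 higher (82 and 22 with TMM factors). The semaphorin Sema5a had 13.3, 15.9 and 15.5 FPKM with PBS and 2.27, 2.87 and 2.46 FPKM with cisplatin (-2.17 ± 0.08) and the netrin receptor Unc5c had 10.3, 10.05 and 11.2 FPKM with PBS and 2.16, 2.503 and 2.39 FPKM with cisplatin (-1.78 ± 0.06). Rnd1, a small GTPase that loosens adhesion, was at 0.153, 0.0542 and 0 FPKM with PBS, where 1 library had no read, and at 4.76, 4.88 and 4.73 FPKM with cisplatin (2.44 ± 0.08). The ephrin ligand Efnb2 rose along with the receptor Epha2, with 7.74, 9.21 and 9.82 FPKM with PBS and 25.2, 26.5 and 25.7 FPKM with cisplatin (1.44 ± 0.08).

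Of 7 tested Dock proteins, exchange factors that load small GTPases with GTP, 6 were lower and 0 higher. Dock1 had 18.1, 18.6 and 20.2 FPKM with PBS and 2.86, 2.92 and 2.44 FPKM with cisplatin (-2.42 ± 0.07) and Dock8 had 6.71, 6.88 and 6.63 FPKM with PBS and 2.04, 1.83 and 1.62 FPKM with cisplatin (-1.45 ± 0.07). Of 12 myosin genes 10 were lower and 2 higher, led by Myo1d with 40.3, 39.8 and 41.4 FPKM with PBS and 12.3, 13.1 and 12.7 FPKM with cisplatin (-1.6 ± 0.05). Myo6, described above as a hair cell marker, was among them (-0.92 ± 0.07).

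Among calcium pumps, channels and sensors 18 were lower and 10 higher of 36. The calcium release channels of the endoplasmic reticulum Itpr1 and Itpr3 fell, with differences of -1.15 ± 0.06 and -1.06 ± 0.05. Rcan1, an inhibitor of calcineurin that calcineurin signalling is known to induce, had 11.2, 11.5 and 11.1 FPKM with PBS and 37.999, 33.7 and 33.6 FPKM with cisplatin (1.56 ± 0.06).

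Transcription factor families of the deposited annotation differed in direction. Of 10 tested genes annotated as E2F 9 were higher and 0 lower, with a median log2 difference of 0.66, and the counts were the same with TMM factors. E2f8 had 4.66, 5.18 and 4.16 FPKM with PBS and 20.4, 19.5 and 21.2 FPKM with cisplatin (1.92 ± 0.08, limma adjusted p = 4.66e-11) and E2f2 had 1.401, 1.33 and 1.08 FPKM with PBS and 6.08, 5.5003 and 5.502 FPKM with cisplatin (1.56 ± 0.07), both factors of the cell cycle. The annotation also puts Necab3 there, which is not an E2F protein by name. The MYB family had 16 higher and 6 lower of 25, with Mybl1 at 4.47, 5.93 and 5.49 FPKM with PBS and 15.6, 15.1 and 15.7 FPKM with cisplatin. In the bZIP family, which holds AP-1 and ATF factors, 18 were higher and 14 lower of 35 (16 and 16 with TMM factors). Beside Maff and the AP-1 genes, the falls were led by Atf6, a sensor of unfolded proteins, with 30.2, 30.2 and 31.3 FPKM with PBS and 11.8, 12.5 and 11.4 FPKM with cisplatin (-1.29 ± 0.05), and Atf5, with 207, 209.7 and 208 FPKM with PBS and 108, 119.9 and 107 FPKM with cisplatin (-0.9 ± 0.05).

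The forkhead family had 10 lower and 4 higher of 16. Foxc1, a factor of mesenchyme, had 65.4, 69.6 and 69.8 FPKM with PBS and 19.6, 19.6 and 19.1 FPKM with cisplatin (-1.76 ± 0.05), and its close relative Foxc2 went the other way with 2.98, 3.57 and 3.16 FPKM with PBS and 5.64, 5.77 and 5.51 FPKM with cisplatin (0.65 ± 0.08). In the HMG family 16 were lower and 11 higher of 29. Sox8 had 3.23, 3.76 and 3.699 FPKM with PBS and 0.0652, 0.239 and 0.0536 FPKM with cisplatin (-2.03 ± 0.08), while Tfam, the packaging factor of mitochondrial DNA, rose (0.86 ± 0.05). Among 40 homeobox genes 13 were higher and 16 lower (12 and 20 with TMM factors). Dlx2 rose from 1.001, 1.02 and 0.851 to 5.503, 5.295 and 5.41 FPKM (1.71 ± 0.07). In the bHLH family 17 were higher and 17 lower of 41 (14 and 22 with TMM factors), with Myc at 44.97, 38.95 and 41.6 FPKM with PBS and 83.9, 74.9996 and 80.1 FPKM with cisplatin (0.91 ± 0.08) and the hypoxia factor partner Arnt2 at 13.2, 13.8 and 13.9 and 3.47, 3.901 and 3.22 FPKM (-1.7 ± 0.07). The largest family, zinc fingers of the C2H2 type, had 119 higher and 63 lower of 239 (99 and 78 with TMM factors). Its shares of 49.8% higher and 26.4% lower were near the background of 47.5% and 30.5%. Families with fewer than 10 tested genes were looked at after their values had been seen. In the NFI family all 4 tested members were lower, with Nfix at 40.6, 40.6 and 42.99 FPKM with PBS and 13.7, 13.3 and 13.1 FPKM with cisplatin (-1.56 ± 0.05).

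**Figure D4:**
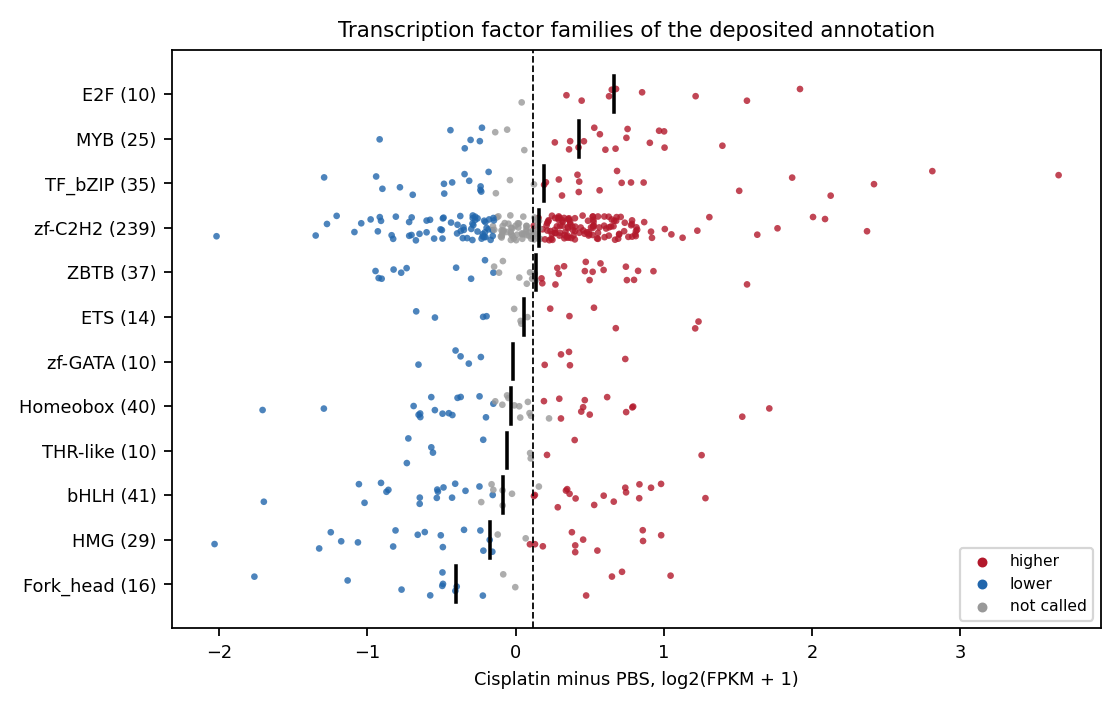
Log2 difference of cisplatin minus PBS on the log2(FPKM + 1) scale for each tested gene of the transcription factor families with at least 10 tested genes, short lines marking family medians, colours the call and the dashed line the median of all tested genes. The annotation's group named Others, with 58 tested genes, is not drawn. The E2F family has the highest median, 0.66, and the forkhead family the lowest, -0.40.

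Several metabolic pathways, of breakdown and of synthesis, had more lower than higher genes, and others had more higher than lower genes. Pyrimidine metabolism had 29 higher and 7 lower of 41 (21 and 10 with TMM factors). Oxidative phosphorylation had 72 higher and 20 lower of 119 (59 and 31 with TMM factors), and its median gene model was 899 bases long. Its shares, 60.5% higher and 16.8% lower, were near the 61.8% and 14.2% of the shortest tested genes, described further on. In the breakdown of valine, leucine and isoleucine 28 of 40 genes were lower and 5 higher, with a median log2 difference of -0.31 (31 and 4 with TMM factors). Bckdhb, a subunit of the committing dehydrogenase, had 23.2, 19.8 and 20.97 FPKM with PBS and 8.97, 10.4 and 8.504 FPKM with cisplatin (-1.12 ± 0.07, limma adjusted p = 4.71e-09), and Hibch, which acts further down the valine route, had 3.601, 3.73 and 3.51 FPKM with PBS and 1.12, 1.299 and 1.24 FPKM with cisplatin (-1.06 ± 0.09). In fatty acid degradation 18 of 33 were lower and 8 higher, with Cpt1a, the gate of long chains into the mitochondrion, at 8.13, 8.30004 and 7.78 FPKM with PBS and 3.77, 4.23 and 4.3004 FPKM with cisplatin (-0.83 ± 0.06). Steroid biosynthesis had 8 lower and 4 higher of 15, and the pentose phosphate pathway 11 lower and 8 higher of 21. Of 103 lysosome genes 49 were lower and 27 higher. The acid glucosidase Gaa fell from 117, 108 and 113 to 46.96, 49.6 and 44.2 FPKM and the sialidase Neu1 rose from 15.5, 15.4 and 16.3 to 33.6, 34.5 and 33.1 FPKM. Aminoacyl-tRNA synthesis had 21 lower and 12 higher of 44, with the mitochondrial Fars2 at 3.38, 3.22 and 3.47 FPKM with PBS and 0.704, 0.793 and 0.775 FPKM with cisplatin (-1.31 ± 0.06).

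Of 154 solute carriers 58 were higher and 61 lower (41 and 82 with TMM factors), with 8 rises and 12 falls of 2-fold or more. Slc7a11, the cystine importer that feeds glutathione synthesis, had 7.13, 7.45 and 7.92 FPKM with PBS and 1.57, 1.604 and 1.44 FPKM with cisplatin (-1.74 ± 0.08). Slc24a3, a sodium, calcium and potassium exchanger, had 4.91, 5.17 and 4.84 FPKM with PBS and 0.462, 0.384 and 0.381 FPKM with cisplatin (-2.08 ± 0.06). Slc25a25, a mitochondrial carrier of adenine nucleotides, had 6.85, 6.08 and 5.99 FPKM with PBS and 23.2, 23.9 and 22.9 FPKM with cisplatin (1.74 ± 0.06) and the glucose transporter Slc2a3 had 6.502, 5.74 and 6.16 FPKM with PBS and 16.6, 16.3 and 15.5 FPKM with cisplatin (1.26 ± 0.06).

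Of 165 tested genes annotated as non-coding 77 were higher and 29 lower (66 and 37 with TMM factors), with 21 rises and 2 falls of 2-fold or more. The share higher, 46.7%, was near the 47.5% over all tested genes, and the share lower was 17.6% against 30.5%. Pvt1, a long RNA transcribed next to Myc, had 1.53, 2.35 and 1.95 FPKM with PBS and 7.97, 8.33 and 8.19 FPKM with cisplatin (1.65 ± 0.11). Gas5, the host of small nucleolar RNAs, had 198, 226 and 235 FPKM with PBS and 376, 374 and 429 FPKM with cisplatin (0.84 ± 0.06).

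More genes were detected with cisplatin. At an equal depth of 27509388 reads, the number of genes expected with at least 1 read was 15206 to 15241 in the PBS libraries and 16033 to 16080 in the cisplatin libraries. The groups did not overlap, and 3 libraries against 3 cannot give an exact two-sided permutation p below 0.1. Among the 9076 genes under the filter, 324 had no read in the 3 PBS libraries and reads in all 3 cisplatin libraries, and 57 showed the reverse. For comparison, the neomycin libraries lay at 15624 to 15681 genes.

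In terms of the summed FPKM, the largest losses were in a few abundant genes. Col1a1, Col1a2, the intermediate filament Vim and the ferritin chain Fth1 led them, with Fth1 at 4071, 3997 and 4126 FPKM with PBS and 2676, 2746 and 2771 FPKM with cisplatin (-0.57 ± 0.05) and Vim at 2714, 2768 and 2735 and 1455, 1476 and 1444 FPKM (-0.91 ± 0.04). Tnfrsf12a, the receptor of the cytokine TWEAK, was among the largest gains, with 174, 154 and 147 FPKM with PBS and 755, 738 and 734 FPKM with cisplatin (2.23 ± 0.06). The thymosin Tmsb4x had 4273, 4437 and 4266 FPKM with PBS and 5337, 5044 and 5504 FPKM with cisplatin (0.29 ± 0.06, and 0.14 with TMM factors, where it did not pass).

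The direction of change went with the length of the gene model. Tested genes were divided into 10 groups of nearly equal size by the length recovered from the deposited values. In the shortest group (168 to 1169 bases) the median log2 difference was 0.271, with 61.8% of genes higher and 14.2% lower. In the longest group (7979 to 36168 bases) it was -0.215, with 23.6% higher and 55.1% lower. Falls of 2-fold or more numbered 7 in the shortest group and 100 in the longest, and rises of 2-fold or more numbered 75 and 18. With TMM factors the medians were 0.135 and -0.328. Expression level went with length too, with a median of 35.03 FPKM with PBS in the shortest group and 4.36 FPKM in the longest. The parts of length and of level were not tested separately.

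Each cisplatin library gave the same order, with medians of 0.277, 0.238 and 0.309 in the shortest group and -0.224, -0.196 and -0.221 in the longest. Without PBS replicate 1 the medians were 0.262 and -0.25. PBS replicate 1 against the other PBS libraries gave 0.007 and -0.09, and neomycin against PBS gave -0.013 and 0.12. Across the tested genes the correlation of the difference with log2 length was -0.256 (Pearson) and -0.264 (Spearman), and without PBS replicate 1 it was -0.27 and -0.281. Between untreated libraries, for PBS replicate 1 minus the other 2, it was -0.197 and -0.237, and for neomycin minus PBS it was 0.11 and 0.108. These are descriptions over genes that share libraries and are not independent replicates. Median lengths of the lists followed their direction in some cases and not in others, against 3152 bases over all tested genes. They went with it at 899 bases for oxidative phosphorylation, 2247 for the spliceosome and 1949 for the RNA polymerases, which had more higher genes. On the lower side they did so at 7842 for the Dock proteins, 7780 for the myosins and 5562 for ECM-receptor interaction. They went against it at 4474 bases for the cleavage and polyadenylation factors, 4148 for the E2F family and 3772 for the Fanconi anemia pathway, which had more higher genes, and at 2322 for the breakdown of valine, leucine and isoleucine and 2611 for the lysosome, which had more lower genes. The part of length in the results for these lists was not tested.

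**Figure D5:**
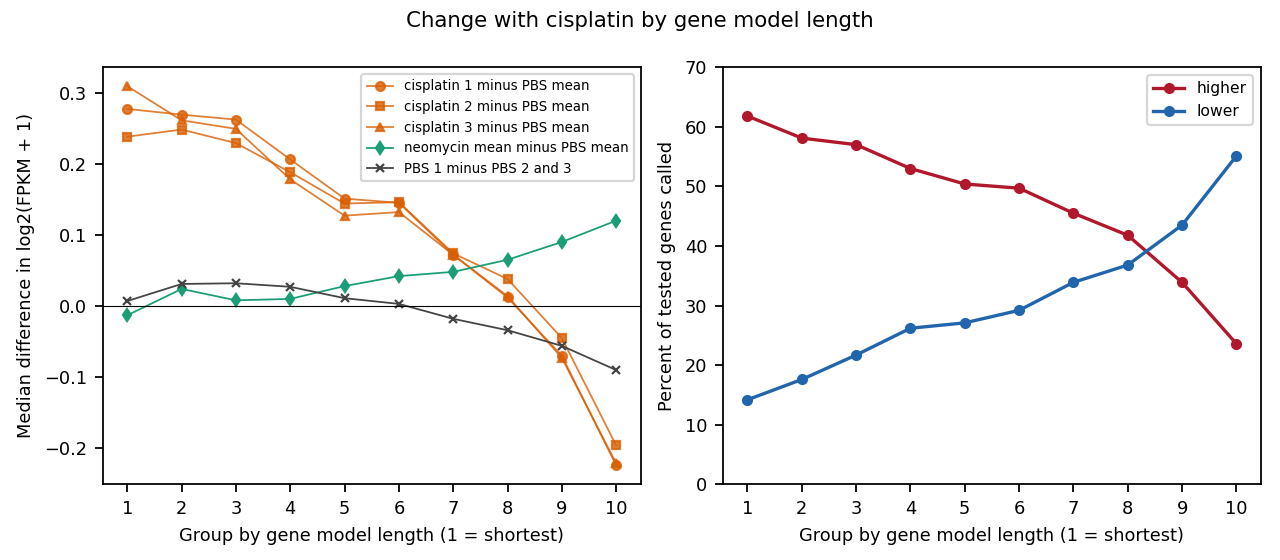
Left, median difference in log2(FPKM + 1) by group of gene-model length (10 groups, shortest first) for each cisplatin library minus the PBS mean, for neomycin minus PBS and for PBS replicate 1 minus the other PBS libraries; right, percent of tested genes higher or lower with cisplatin. The share lower rises from 14.2% to 55.1% and the share higher falls from 61.8% to 23.6% from the shortest to the longest group.

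Neomycin was compared with the same PBS libraries, so the values of both drugs share their controls and are set side by side only. Srsf7 differed from PBS by -0.49 with neomycin and by 1.96 ± 0.05 with cisplatin, and the direct difference between the drugs was 2.44 ± 0.05 (limma adjusted p = 4.76e-14). Gpc6 had 16.1, 18.7 and 18.002 FPKM with neomycin and a difference between the drugs of -3.82 ± 0.08 (limma adjusted p = 6.55e-14). Clk4 had 4.43, 4.15 and 4.58 FPKM and Birc3 0.557, 0.492 and 0.741 FPKM with neomycin, with differences of 2.71 ± 0.06 and 2.08 ± 0.07 between the drugs. Myc moved in opposite directions, with 11.2, 9.22 and 8.28 FPKM with neomycin against 83.9, 74.9996 and 80.1 FPKM with cisplatin, a difference of 2.94 ± 0.08. E2f8 and Slc7a11 moved the same way with both drugs and differed less between them, by 1.19 ± 0.08 and -0.56 ± 0.08. All of these differences between the drugs passed the test. The share of all tested genes that passed between the drugs was not counted, so passing does not set these genes apart.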

How the data were processed

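Total RNA was isolated on columns and turned into cDNA libraries with an mRNA sequencing kit, per the labels' protocols. For 19608 genes in 9 libraries the deposited table holds FPKM values that the authors made, per the file headers, beside KEGG and transcription factor annotation. The sources used here name no aligner, counter or strand setting. Labels and gene identifiers are those of rat, with 18532 identifiers found in GRCr8, whereas the line is known to be of mouse origin and mm10 is named in the submitters' processing notes. If reads of one species were counted on models of the other, diverged genes would read low in every library.

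In each library a gene's FPKM is a whole number of steps of 1 read, and reads were worked out for 19608 genes (100.0%, tolerance 0.001 of a read). That number includes genes without a read in any library. The shortest length that gave whole reads was taken, so reads of a gene that share a common divisor would come out too low. For a gene 1 kb long, 3 reads equal 0.0746 to 0.0923 FPKM in the PBS and cisplatin libraries, which covers counting error only, and a tested gene had at least 50 reads over these 6 libraries. Genes whose mean over the 9 libraries reached 1 FPKM were tested on log2(FPKM + 1) with limma 3.58.1 (R 4.3.3), with a mean-variance trend, 1 mean for each group, a fit to the 9 libraries together and Benjamini-Hochberg adjustment over all tested genes. The gene test was run on simulated reads with independent libraries and the same spread for every gene. The simulation had no library that stood apart and no shift in scaling, so it does not bear on those features of the data. Tables were handled with pandas 2.3.3 and numpy 2.4.6 in Python 3.11.15, and plots drawn with matplotlib 3.10.9.

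The comparison, the 30 hand-written lists, the 94 KEGG pathways and the 22 families by gene name were chosen with earlier results of these data known, so lists are described by counts and medians beside all tested genes, and support nothing on their own. Named genes were the 25 largest called rises and falls that reached 5 FPKM in the higher group without overlap between groups, leaving out predicted genes and pseudogenes, the 3 largest called changes each way per list, every tested member of the platinum pathway, the cell type markers and the transporters and binding proteins of platinum. Genes outside that rule are marked where they appear. Some genes are not reported here. The alternatives were other pseudocounts (0.1 and 0.5), no filter and one at 5 FPKM, TMM factors, quantile normalization, PBS and cisplatin libraries only, array weights, a replicate block, limma's treat at 1.5-fold, each library left out, and limma's voom on the recovered reads.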

Additional observations from a re-analysis of the deposited data

How the results depend on the processing

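The 5 counts of calls kept within 1.5 times the reported ones except in these cases. With a pseudocount of 0.1 the genes at least 2-fold lower numbered 543 against 354, as a smaller pseudocount enlarges changes of low genes. Treat against a 1.5-fold change left 1892 genes, 1195 higher and 697 lower. Voom on the recovered reads with TMM factors, chosen after seeing the data, called 8197 genes, 3971 higher and 4226 lower, with 604 rises and 827 falls of 2-fold or more; it changes the scaling and the pseudocount together, and the cause was not tested. The share of calls that were higher was 60.9% as deposited, 48.5% with TMM factors, 50% with quantile normalization and 48.4% with voom. Leaving out each library in turn gave 7848 to 8189 calls, 4766 to 4951 higher and 3047 to 3238 lower, with 608 to 638 rises and 343 to 373 falls of 2-fold or more.

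Same-numbered libraries had correlations of their deviations of 0.213, -0.046 and 0.17, and differently numbered ones had correlations from -0.25 to 0.159. Whether replicate numbers pair the samples was not tested. With the replicate block 8424 genes were called, 5117 higher and 3307 lower. Of 2797 values for 177 named genes under the alternatives other than treat, 2782 kept their call. Where a gene had no call in either fit, its direction was not compared. Gstp1 reversed, at -0.135 with TMM factors and -0.136 with voom, as did Thy1, at -0.051 with TMM factors and voom and -0.083 with quantile normalization. Thy1 also lost its call in limma's fit of the PBS and cisplatin libraries alone (adjusted p = 0.0511) and without any one library other than PBS replicate 1 (adjusted p from 0.0658 to 0.13). Slc31a1 lost its call with TMM factors, quantile normalization and voom, and Tmsb4x with TMM factors. The planned count models on recovered reads were not run, because the deposited unit is FPKM. Low genes are limited by depth, and genes under 1 FPKM were not tested.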

Other observations

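Other groups of genes had counts of their own with cisplatin against PBS, described here with no explanation. Of 26 genes of cohesin and condensin, the ring complexes of chromosomes, 17 were higher and 4 lower (13 and 7 with TMM factors). The acetyltransferase Esco2 had 7.72, 9.805 and 9.596 FPKM with PBS and 30.2, 31.9 and 33.7 FPKM with cisplatin (1.72 ± 0.08, SE) and the condensin subunit Ncaph had 36.6, 36.5 and 37.3 FPKM with PBS and 90.3, 86.7 and 85.7 FPKM with cisplatin (1.23 ± 0.04), while the cohesin loader Nipbl (-0.61 ± 0.09) and the cohesin subunits Stag1 (-0.8 ± 0.07) and Stag2 (-0.53 ± 0.08) fell. Of 44 genes of transport in the primary cilium 21 were lower and 12 higher. The subunits of the BBSome, which sorts proteins at the cilium, included members of opposite direction. Bbs9 had 3.89, 3.802 and 3.82 FPKM with PBS and 0.287, 0.2396 and 0.225 FPKM with cisplatin (-1.95 ± 0.07) and Bbs7 had 9.37, 10.8 and 10.5 FPKM with PBS and 27.1, 28.1 and 29.3 FPKM with cisplatin (1.38 ± 0.07).

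Enzymes that build and edit heparan sulfate, the chains carried by glypicans such as Gpc6, were lower in 12 and higher in 4 of 20 genes. The polymerase subunit Ext2 had 29.1, 27.8 and 27.1 FPKM with PBS and 14.7, 15.4 and 13.3 FPKM with cisplatin (-0.91 ± 0.06) and the epimerase Glce had 21.6, 23.4 and 24.6 FPKM with PBS and 12.2, 13.3 and 13.4 FPKM with cisplatin (-0.79 ± 0.06), while the sulfotransferase Ndst2 rose (0.87 ± 0.07). Of 6 ADAM proteases, which shed proteins from the surface, 5 were lower and 1 higher. Adam17, which releases TNF and ligands of the EGF receptor, was the member that rose, with 53.1, 55.9 and 55.1 FPKM with PBS and 71.98, 73.6 and 73.7 FPKM with cisplatin (0.41 ± 0.05), and Adam10 fell (-0.65 ± 0.08). Of 7 genes of the TNF superfamily 4 were higher and 2 lower. The receptor Tnfrsf1b had 2.54, 2.53 and 2.69 FPKM with PBS and 6.46, 6.397 and 5.96 FPKM with cisplatin (1.02 ± 0.06) and the receptor Tnfrsf1a had 77.9, 74.4 and 74.96 FPKM with PBS and 54.6, 56.6 and 51.5 FPKM with cisplatin (-0.48 ± 0.04), so the receptors of TNF moved in opposite directions on the values as deposited and with TMM factors.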
